A study of Homo sapiens with 4 samples.

Results

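The HOXA cluster on chromosome 7 gives rise to long non-coding RNAs (lncRNAs) as well as to HOX proteins, and 5 of these RNAs are described here: HOTAIRM1, HOXA-AS2, HOXA-AS3, HOXA11-AS and HOTTIP. They were taken by name from the annotation in the deposited files, where 5 of 5 were found among 60651 genes, of which 14819 are lncRNA genes. The study profiled ribosome footprints, the RNA fragments that a ribosome shields from nuclease, in 4 leukemia cell lines with 1 library each: K562, THP-1, MOLM13 and HL60. No line received a treatment or carried an added allele per the labels. Cells were lysed with cycloheximide, a drug that holds ribosomes in place. K562 derives from chronic myeloid leukemia at the blast stage. THP-1 and MOLM13 are monocytic lines in which KMT2A is rearranged, and HL60 is a promyelocytic-like line. With a single library per line there is no replicate check and no test, so every interval below covers counting error only.

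HOXA genes encode transcription factors that pattern the body axis and sustain blood progenitors, and the MLL protein encoded by KMT2A holds them active. The lncRNAs of the cluster run antisense to them. HOTAIRM1 lies next to HOXA2 and was described in myeloid cells exposed to retinoic acid. HOTTIP lies at the HOXA13 end and is known for binding WDR5, a subunit of MLL complexes. A footprint on such an RNA shows protection of that fragment, which a translating ribosome or another particle could give; the source of the protection was not tested.

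On the build hg38 all 5 lie on the plus strand of chromosome 7, opposite to the 10 HOXA coding genes used here. HOTAIRM1 spans chr7:27095647-27100265 with 6 transcripts, HOXA-AS2 spans chr7:27107777-27134302 with 13, and HOXA-AS3 spans chr7:27129977-27155928 with 5. HOXA11-AS spans chr7:27184507-27189298 with 10 transcripts, and HOTTIP spans chr7:27198575-27207259 with 4. GENCODE release 29 classes each of them as antisense. The reads were assigned without strand, so signal on an exon that overlaps an exon of the opposite strand cannot be told apart from signal of that gene.

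A few short stretches to which the text below refers are shown, taken from GENCODE release 29 transcript sequences on hg38, plus strand. The first is the exon that held most of the HOTAIRM1 signal in K562 and THP-1, chr7:27096094-27096388 of transcript ENST00000434063.3, 295 bases with a GC content of 66.4%. Capitals mark the 137 bases, chr7:27096191-27096327, that also form an exon of the short transcript ENST00000495032.1. The second is AC004079.4, chr7:27098900-27099114, an entry of 215 bases inside the middle HOTAIRM1 exon, with a GC content of 41.4%. GENCODE release 29 lists it as a gene of its own, of the class misc_RNA.
HOTAIRM1 first exon: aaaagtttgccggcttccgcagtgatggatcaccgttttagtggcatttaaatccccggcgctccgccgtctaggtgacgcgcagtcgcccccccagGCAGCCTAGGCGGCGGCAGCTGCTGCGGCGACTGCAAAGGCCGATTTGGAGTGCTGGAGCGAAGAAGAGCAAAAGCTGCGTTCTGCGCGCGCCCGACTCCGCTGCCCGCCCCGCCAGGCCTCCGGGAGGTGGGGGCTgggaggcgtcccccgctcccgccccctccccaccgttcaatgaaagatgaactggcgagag
AC004079.4: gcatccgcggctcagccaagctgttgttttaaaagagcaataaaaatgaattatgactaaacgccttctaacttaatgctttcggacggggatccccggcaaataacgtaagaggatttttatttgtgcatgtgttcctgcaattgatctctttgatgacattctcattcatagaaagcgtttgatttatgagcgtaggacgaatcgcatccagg
The other pair are reading frames, with the start and stop codon in capitals. The longest frame of the HOTAIRM1 transcript ENST00000434063.3 has 50 codons and runs across the splice junction from 27096367 to 27099909. The frame of HOXA11-AS, chr7:27185644-27185871, has 75 codons and is the longest lying wholly within the exon that carried most of its signal in THP-1. The longest frame of that transcript, ENST00000522674.1, has 135 codons and lies on its last exon.
HOTAIRM1 frame: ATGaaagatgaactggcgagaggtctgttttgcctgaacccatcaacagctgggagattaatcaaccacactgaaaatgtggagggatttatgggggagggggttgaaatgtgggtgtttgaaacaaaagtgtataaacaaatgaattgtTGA
HOXA11-AS frame: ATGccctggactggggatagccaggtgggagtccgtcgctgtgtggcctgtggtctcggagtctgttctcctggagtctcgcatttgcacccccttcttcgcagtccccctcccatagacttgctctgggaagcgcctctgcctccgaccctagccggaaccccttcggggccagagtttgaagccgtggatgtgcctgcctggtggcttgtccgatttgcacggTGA

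Aligned depth was 473, 678, 344 and 973 megabases in K562, THP-1, the MOLM13-labelled library and HL60. At the modal fragment length of 29 bases this is 16.3, 23.4, 11.9 and 33.6 footprint equivalents in units of 1000000. Red cell markers were high in K562 (6 of 6), and granule and monocyte markers were high in THP-1 or HL60 (4 of 4 and 6 of 6). The MOLM13-labelled library stood apart. Its T cell marker CD3D was at a scaled TPM of 891 against 3.37 to 49.0 in the others, and its CD3E was at 12.4 against 0. Of its progenitor markers, CD34 was at 194, but FLT3 was listed at 0, against 1.83 in THP-1. KIT was at 0.788, below 5.34 in K562. Its 4 granule markers summed to 20.2, against 4695 in THP-1 and 6960 in HL60, and its 6 monocyte markers summed to 32.1, against 3979 and 744. The deposited file also carries another name than the label, so calls are given with and without this library.

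Levels are scaled TPM, the deposited TPM (an abundance normalized for length and depth) summed over a gene's transcripts and divided by a factor per library. Being per length, these levels are set side by side between genes, within a limit. The length is that of the whole transcript, untranslated parts of coding genes included, and the level depends on the transcript to which reads were assigned. HOTAIRM1 was the only one of the 5 with signal in every library, and HOXA-AS2 had signal in 1, HOXA-AS3 and HOXA11-AS in 2 and HOTTIP in 3. K562 held HOTAIRM1 alone among them: it took 100% of the 10321 aligned bases of the 5 genes (Wilson 95% interval 98.9 to 100). In THP-1 the bases went mainly to the HOXA11 and HOXA13 end, with 55.1% on HOXA11-AS and 20.1% on HOTTIP, 12.6% on HOXA-AS3 and 12.2% on HOTAIRM1. HL60 had 42.7% on HOXA11-AS, 36.3% on HOTAIRM1, 18.0% on HOXA-AS3 and 2.98% on HOTTIP. The MOLM13-labelled library had 51.0% on HOTAIRM1, 26.9% on HOTTIP and 22.1% on HOXA-AS2. Together the 5 genes made up 0.150% and 0.171% of all lncRNA aligned bases in K562 and THP-1, and 0.0771% and 0.0775% in the MOLM13-labelled library and HL60. In bulk lysates, fewer cells with an RNA and less signal per cell cannot be told apart.

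**Figure D1:**
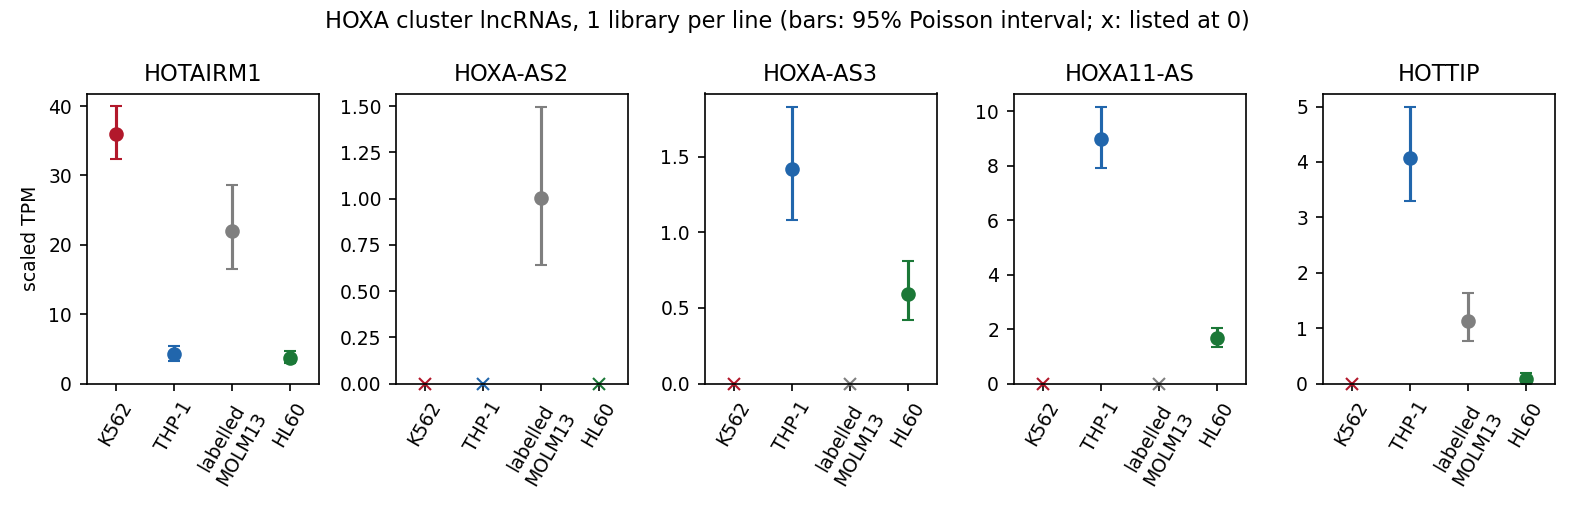
Scaled TPM (vertical axis, separate scale per gene) of the 5 HOXA cluster lncRNAs in the 4 libraries (horizontal axis); points are the library values, bars the 95% Poisson interval and crosses values listed at 0. HOTAIRM1 is above 0 in every library and highest in K562 at 36.0, while HOXA-AS3, HOXA11-AS and HOTTIP are highest in THP-1.

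The rule of size calls a gene high where log2(scaled TPM + 1) exceeds that of all 3 other lines by 2 or more and the gene has 600 or more aligned bases. A gene is low where it falls short of all 3 by the same distance and each of them has 600 aligned bases. Each of the 5 genes reached 600 aligned bases in at least 1 library, in 11 of 20 gene and library pairs. None was called high and none low. The background was 14.3% of 1115 lncRNA genes called high and 8.31% of 301 called low, and 7.99% of 12595 protein-coding genes called high and 8.6% of 9505 called low. Without the MOLM13-labelled library, 2 of 5 were called high, HOTAIRM1 in K562 and HOTTIP in THP-1, where 18.5% of 1032 lncRNA genes were.

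In scaled TPM with its 95% Poisson interval, HOTAIRM1 stood at 36.0 in K562 (32.4 to 40.0), 22.0 in the MOLM13-labelled library (16.5 to 28.6), 4.23 in THP-1 (3.20 to 5.47) and 3.73 in HL60 (2.95 to 4.65). On this scale K562 lay above every other library beyond counting error, and THP-1 and HL60 overlapped. Before division by the library factor, K562 was at 30.1 and the MOLM13-labelled library at 24.6, with intervals that overlap. HOTAIRM1 ranked 30 of 848 lncRNA genes with signal in K562 and 37 of 861 in the MOLM13-labelled library. Its rank was 217 of 1208 in THP-1 and 134 of 1190 in HL60. K562 was 0.69 above the MOLM13-labelled library on the log2(scaled TPM + 1) scale, and without that library it was 2.82 above the next line.

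The TPM of HOTAIRM1 rests on the transcripts to which its reads were assigned. In the MOLM13-labelled library, 89.0% of the HOTAIRM1 TPM sat on ENST00000495032.1, a transcript of 163 bases, and a short transcript gives a high TPM from few reads. In K562, 78.6% of it sat on ENST00000434063.3 (671 bases) and 21.4% on ENST00000593300.1 (647 bases). Without division by length, HOTAIRM1 had 28.9 aligned bases per coding megabase, that is per megabase aligned to nuclear protein-coding genes, in K562 (25.9 to 32.0), 5.58 in the MOLM13-labelled library, 2.91 in THP-1 and 2.67 in HL60. The K562 value was 5.17 times that of the MOLM13-labelled library (exact conditional 95% interval 3.89 to 7.01), 9.91 times that of THP-1 (7.44 to 13.2) and 10.8 times that of HL60 (8.45 to 14.0). On this measure the log2 distance of K562 to the next line was 2.18, past the limit of 2. With aligned bases taken over the joined exon length of HOTAIRM1, K562 stood at 16.0 and the MOLM13-labelled library at 3.30, a distance of 1.99.

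Signal along HOTAIRM1 was not even. Its exons join into 4 blocks, and 3 held signal. The 5′ block, the exon printed above, held 61.0% of the gene in K562, 98.2% in THP-1, 95.3% in the MOLM13-labelled library and 49.5% in HL60. The 3′ block, chr7:27099619-27100265, held 39.0%, 1.80%, 3.27% and 48.3% in the same order. THP-1 thus had 1638 bases on the 5′ block and 30.0 on the 3′ block, while HL60 had 1122 and 1095. None of the HOTAIRM1 exons with signal overlapped an exon of the opposite strand.

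Entries classed as misc_RNA inside these exons shared the signal, and whether they are RNAs apart from HOTAIRM1 was not tested. Of 5 such genes on the same strand, 3 were above 0, and they held as much as 21.6% of the HOTAIRM1 bases again in K562 and 32.0% in the MOLM13-labelled library, against 2.51% in THP-1 and 0.259% in HL60. AC004079.4, printed above, was at a scaled TPM of 20.6 in K562 and 1.46 in the MOLM13-labelled library, with 0 listed for HL60 and THP-1. HOTAIRM1 itself was listed at 0 on the surrounding middle block in K562, so all 1903 bases there were assigned to AC004079.4. With the nested genes counted in, the middle block had 5.32 aligned bases per coding megabase in K562 (4.11 to 6.78), 0.434 in the MOLM13-labelled library, 0.0590 in HL60 and 0 in THP-1. The 5′ block then had 17.6 in K562 (15.4 to 20.1), 5.37 in the MOLM13-labelled library (4.02 to 7.02), 2.93 in THP-1 (2.23 to 3.79) and 1.33 in HL60 (0.945 to 1.82). On the 3′ block the values were 12.2 (10.3 to 14.3), 1.57 (0.891 to 2.57), 0.0524 (0.00147 to 0.285) and 1.29 (0.913 to 1.77) in that order. K562 was highest on each of the 3 blocks, beyond counting error.

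**Figure D2:**
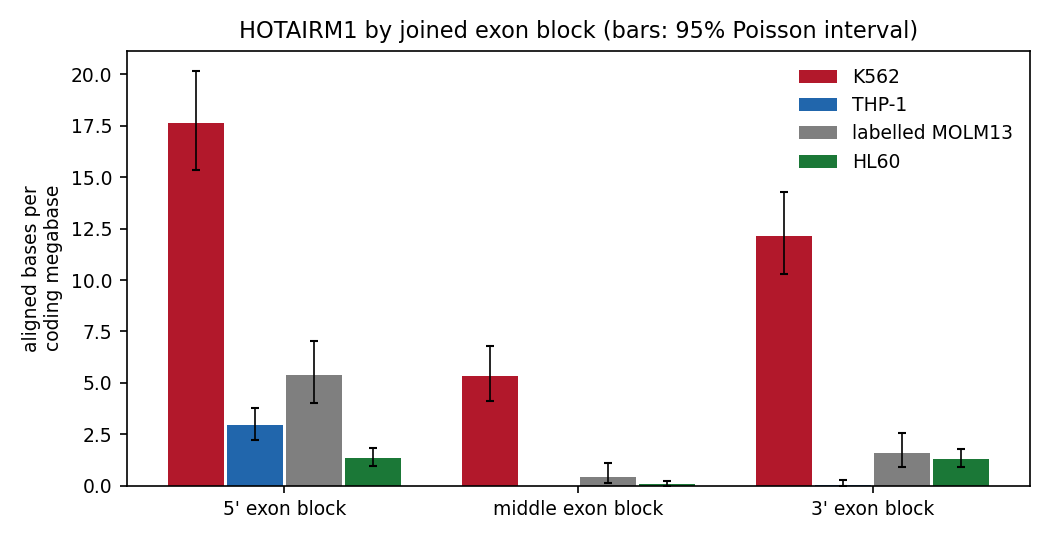
Aligned bases per coding megabase (vertical axis) on the 3 HOTAIRM1 exon blocks with signal, nested misc_RNA entries counted in, for the 4 libraries (colors). Bars show the value and lines the 95% Poisson interval. K562 is highest on each block (17.6, 5.32 and 12.2), and THP-1 has 98.2% of its HOTAIRM1 bases on the 5′ block.

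HOXA11-AS, antisense to HOXA11, was at a scaled TPM of 8.99 in THP-1 (7.93 to 10.1) and 1.67 in HL60 (1.35 to 2.05), and was listed at 0 in K562 and the MOLM13-labelled library. THP-1 was 5.37-fold above HL60 in scaled TPM and 1.90 above it on the log2(scaled TPM + 1) scale, just short of the limit of 2. In aligned bases per coding megabase the ratio was 4.18 (3.29 to 5.37), from 13.2 against 3.15. The MOLM13-labelled library, which was at 0, entered these values only through the library factors of the scaled TPM.

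The signal of HOXA11-AS lay on different exons in the 2 lines. In THP-1 the exon chr7:27185408-27186263, 856 bases, held 5085 aligned bases or 67.4% of the gene (61.4 to 72.7), and no exon with signal overlapped the opposite strand. In HL60 the exon chr7:27184671-27185244 held 2119 bases or 79.3% (70.0 to 86.4), and 97.9% of its 574 bases overlap the exon chr7:27184436-27185232 of HOXA11. HOXA11 was at 6.26 in HL60, with 6245 bases on that exon and 9072 on its other exon, and it was listed at 0 in the other 3 libraries. In HL60, therefore, 20.7% of the HOXA11-AS bases (13.6 to 30.0) lay outside HOXA11 exons, mainly 480 bases on the last block, chr7:27188601-27189298, where THP-1 had 2103. Restricted to exons free of the opposite strand, HOXA11-AS was 2.54 above the next line in THP-1, past the limit, where 11.4% of 719 lncRNA genes were called high. The part of HOXA11 reads in the HL60 value cannot be told apart.

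**Figure D3:**
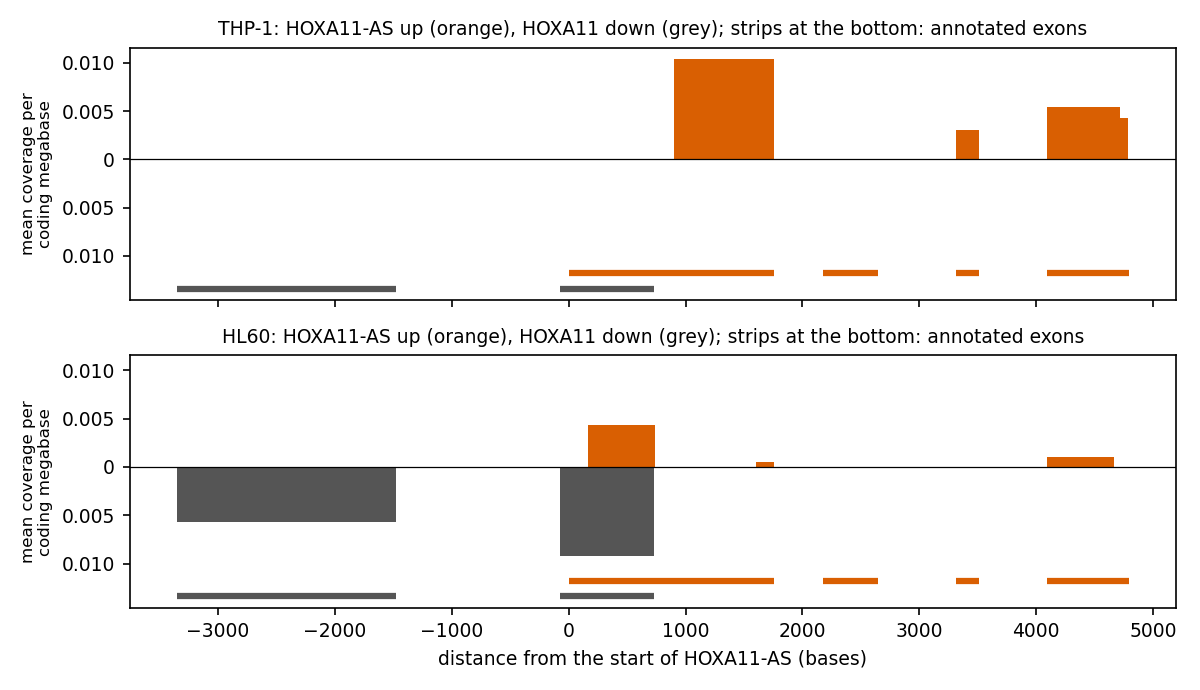
Mean coverage per base and coding megabase (vertical axis) of HOXA11-AS (up) and HOXA11 (down) in THP-1 and HL60, by distance from the start of HOXA11-AS (horizontal axis, bases); filled areas are exon means and strips are annotated exons. THP-1 shows HOXA11-AS with HOXA11 at 0, and in HL60 most of the HOXA11-AS signal sits where the exons of both genes overlap.

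HOTTIP was at 4.08 in THP-1 (3.30 to 4.99), 1.14 in the MOLM13-labelled library (0.761 to 1.63) and 0.0888 in HL60 (0.0339 to 0.189; 186 aligned bases, under the minimum), and was listed at 0 in K562. The intervals of the 3 libraries with signal did not overlap. THP-1 was 1.25 above the MOLM13-labelled library on the log2 scale, and 2.22 above the next line without it. Both distances depend on length, since most of the THP-1 TPM sat on a 781-base transcript and that of the other libraries on one of 2285 bases. Over the joined exon length HOTTIP was at 0.919, 0.511 and 0.0399 in THP-1, the MOLM13-labelled library and HL60, too low for a distance of 2. In aligned bases per coding megabase THP-1 and the MOLM13-labelled library were at 4.80 and 2.94, a ratio of 1.63 (1.07 to 2.57). The ratio of THP-1 to HL60 was 21.9 (10.4 to 65.5). In THP-1 the exon chr7:27200623-27201236 of transcript ENST00000421733.1 held 1608 bases or 58.5%, and in the MOLM13-labelled library and HL60 the signal was assigned to the 2200-base exon that contains it. None of it overlapped the opposite strand. Nested misc_RNA entries held a further 16.0% in THP-1, among them AC004080.9 at a scaled TPM of 7.24.

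HOXA-AS3 was at 1.42 in THP-1 (1.08 to 1.83) and 0.595 in HL60 (0.423 to 0.814), and listed at 0 in K562 and the MOLM13-labelled library. THP-1 was 2.38-fold above HL60, with intervals that did not overlap, and the ratio in aligned bases per coding megabase was 2.26 (1.47 to 3.45). All of it, 1723 and 1126 aligned bases, lay on 1 of 6 exon blocks, chr7:27150052-27151681. That exon overlaps HOXA6 over 296 of its 1630 bases, and HOXA6 was listed at 0 in every library.

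HOXA-AS2 was at 1.00 in the MOLM13-labelled library (0.641 to 1.49), from 691 aligned bases or 23.8 footprint equivalents, and listed at 0 in the other 3. Without that library HOXA-AS2 had no signal at all. The exon chr7:27128200-27128760 held 377 of these bases, and 254 of its positions overlap HOXA4, which was itself listed at 0 there. The block chr7:27121917-27123377 held 188, also on exons that overlap the opposite strand. It lies within the span of HOXA3, which had 1490 aligned bases in this library, and shared reads cannot be told apart. Only 18.2% of the bases (6.68 to 35.9) lay on an exon free of the opposite strand. Over all libraries HOXA-AS2 had the fewest aligned bases of the 5.

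Each lncRNA was set beside its neighbouring HOXA gene, in scaled TPM. The lncRNA was above the first neighbour in 8 of the 13 pairs in which either gene had 600 aligned bases, and in 6 of 10 without the MOLM13-labelled library. In 4 of the 8 pairs the neighbour was listed at 0: HOXA-AS3 in THP-1 and HL60, HOXA11-AS in THP-1 and HOTTIP in the MOLM13-labelled library. HOTAIRM1 was above HOXA2 in 4 of 4 libraries: HOXA2 was at 1.43 in K562, 0.508 in THP-1, 4.14 in the MOLM13-labelled library and 0.628 in HL60. The ratio was 25.2 in K562, 8.32 in THP-1, 5.31 in the MOLM13-labelled library and 5.94 in HL60. The value in the MOLM13-labelled library rests on the 163-base transcript. HOXA2 had more aligned bases there, 2669 against 1596, and over the joined exon length HOTAIRM1 was below it, 3.30 against 3.53. The count of 8 was 7 on either of these measures, and 9 with nested genes counted in.

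At the other end, HOTTIP and HOXA13 were near level in THP-1 in scaled TPM, at 4.08 and 4.16. The difference was within the counting interval of HOTTIP. In THP-1, 85.8% of the HOTTIP TPM sat on ENST00000421733.1, a transcript of 781 bases. HOXA13 had more aligned bases there, 12256 against 2751, and over its joined exon length HOTTIP was at 0.919. HOXA13 was at 0.352 in HL60 and listed at 0 in K562 and the MOLM13-labelled library, where HOTTIP had signal. HOXA-AS2 was below HOXA3 in the MOLM13-labelled library, 1.00 against 1.36, within its counting interval, and it was listed at 0 in HL60, where HOXA3 was at 0.482. Only 18.2% of the HOXA-AS2 bases were on exons free of the opposite strand, so the 2 values may rest partly on shared reads. HOXA-AS3 was above its first neighbour HOXA6 in THP-1 and HL60, where HOXA6 was listed at 0. HOXA-AS3 was below HOXA5 in THP-1 (1.79) and HL60 (0.687), again within its counting interval. HOXA7 was at 1.11 in THP-1, within the interval of HOXA-AS3, and at 2.20 in HL60, where HOXA-AS3 was 0.270 times as high. HOXA-AS3 was listed at 0 in K562, where HOXA5 was at 4.94, and in the MOLM13-labelled library, where HOXA5 was at 4.01 and HOXA7 at 9.47.

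HOXA5 followed the same order of lines as HOTAIRM1, from 4.94 in K562 over 4.01 in the MOLM13-labelled library and 1.79 in THP-1 to 0.687 in HL60, with overlapping intervals in the first 2. HOXA9 and HOXA10 followed another order. These genes, which encode factors of blood progenitors that are often raised in KMT2A-rearranged leukemia, were at 15.7 and 18.7 in THP-1 and 29.5 and 16.2 in the MOLM13-labelled library. They were at 2.61 and 1.65 in K562 and 3.05 and 2.49 in HL60. K562 thus had the highest HOTAIRM1 but HOXA9 and HOXA10 well below THP-1, and its HOXA9 interval (2.07 to 3.25) overlapped that of HL60 (2.64 to 3.51). Of the 10 coding genes 1 was called high (HOXA11 in HL60), none low, and 1, HOXA6, was listed at 0 throughout. HOXA10-AS, another antisense RNA of the cluster, was at 9.17 in THP-1 (7.55 to 11.0) and listed at 0 elsewhere, which the rule calls high.

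**Figure D4:**
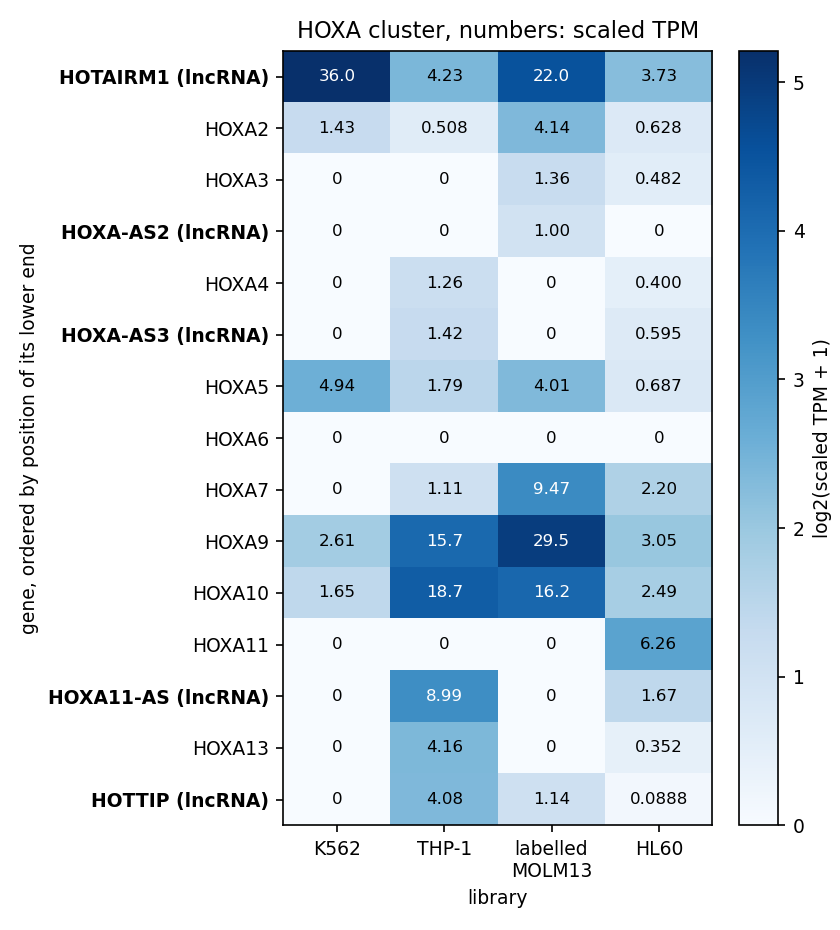
Scaled TPM (numbers) and log2(scaled TPM + 1) (color) of 15 HOXA cluster genes, 5 lncRNAs in bold and 10 coding genes, ordered from the HOTAIRM1 to the HOTTIP end (rows) in the 4 libraries (columns). Along the cluster, K562 has signal at HOTAIRM1 (36.0) and not at the other 4 lncRNAs, and THP-1 is the highest library for 3 of the 4.

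The proteins that these RNAs are known to bind, and regulators of the locus, gave no call: 0 of 16 were high and 0 were low. By the same rule 7.99% of 12595 protein-coding genes were called high and 8.6% of 9505 low. Among 16 genes, a count of 0 is little different from these shares. WDR5, the HOTTIP partner, was between 11.5 in HL60 and 18.1 in K562. EZH2, the methyltransferase of Polycomb repressive complex 2, was at 59.3 in K562, 30.0 in THP-1, 17.8 in HL60 and 9.68 in the MOLM13-labelled library. KMT2A was at 4.21 to 9.61. RARA, the retinoic acid receptor, was at 2.23 to 4.90 in 3 lines and listed at 0 in the MOLM13-labelled library. KDM6A, an H3K27 demethylase, was at 0.163 in THP-1 and 3.18 to 10.0 in the others.

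Frames from ATG to stop in the transcripts with signal were measured from the sequences, as a description, because exon means cannot show in which frame footprints lie. All 14 member transcripts with signal had the same exons in GENCODE release 29. Beside the 50-codon frame of HOTAIRM1, 50.4% of 9505 lncRNA transcripts of like length hold a frame at least as long. The longest HOTAIRM1 frame among transcripts with signal has 80 codons and runs across a splice junction from 27099255 to 27099909 in ENST00000429611.7 (19.5% of 7853) and ENST00000428939.3 (24.4% of 5560). Those transcripts had 11.0% of the HOTAIRM1 TPM in the MOLM13-labelled library and 1.64% in HL60. HOXA11-AS transcript ENST00000522674.1 has a frame of 135 codons, chr7:27188870-27189277, on its last exon, and 11.4% of 2528 like transcripts hold one as long. Its first exon, with the higher signal in THP-1, holds the 75-codon frame printed above. HOTTIP transcript ENST00000421733.1 has 61 codons at chr7:27200682-27200867, within its exon of highest signal (41.0% of 6999). HOXA-AS3 has 62 codons (82.5% of 2745). HOXA-AS2 transcript ENST00000517550.1 has the longest frame, 182 codons (5.51% of 2741), on an exon that was listed at 0.

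Genes with the most similar pattern were sought among 12664 coding and lncRNA genes by the largest deviation, over the 4 libraries, between centred log2(scaled TPM + 1) values. Nearest to HOTAIRM1 were the lncRNA AC074044.1 (0.11) and the coding genes PSMD5 (0.12) and LRIG3 (0.13), with 102 genes within 0.5. PSMD5, an assembly factor of the proteasome, was at 55.2, 8.18, 34.1 and 7.41 in K562, THP-1, the MOLM13-labelled library and HL60. For HOXA11-AS the nearest were SERINC2, CNFN and MMAA, with 76 genes within 0.5. For HOTTIP they were ZHX3, MID2 and TMEM91, with 106. HOXA-AS3 (MED22, ZNF143 and TP73) and HOXA-AS2 (SYDE1, TMEM169 and SERTAD4) had 815 and 1140 genes within 0.5, so many genes lay about as close to them. These are 4 points per gene that share library and depth.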

How the data were processed

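Ribosome-protected fragments from 4 cell lines, 1 library each, were analysed from the deposited transcript tables. The submitters' processing notes name StringTie 2.1.5, STAR 2.7.8a, Bowtie2 2.4.2 and Trim Galore 0.6.6, and the build hg38. StringTie ran on read 1 with GENCODE release 37, without new transcripts and without a strand option, per the file headers. The authors deposited coverage for exons and transcripts and TPM and FPKM for transcripts; FPKM was not used.

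Transcript TPM was summed per gene and divided by a library factor, the median of its ratios to the per-gene geometric mean (3751 genes, TPM of 10 or more in every library). The factors were 1.05 for HL60, 0.837 for K562, 1.01 for THP-1 and 1.12 for the MOLM13-labelled library. Aligned bases are coverage times length, and footprint equivalents are aligned bases over 29. Poisson and Wilson 95% intervals rest on footprint equivalents and cover counting error only. StringTie can split reads fractionally between overlapping transcripts, so values need not be whole reads. Gene types, matched for 58405 genes, came from GENCODE release 29.

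The rule of size used a pseudocount of 1, a log2 difference of 2 and 600 aligned bases, and was tested on simulated data. The named genes are the 5 lncRNAs, their neighbours, the HOXA genes, other HOX lncRNAs, 16 partners or regulators and the 3 nearest genes of each. One gene that the rule names is not reported here. The neighbour counts set HOTAIRM1 beside HOXA2. The members and lists were chosen with earlier results of these data known. Alternatives covered scaling, length, pseudocount, distance, minimum, overlapping exons, transcript choice and leaving out the MOLM13-labelled library. The library factors were not computed anew when that library was left out. The software was SciPy 1.17.1, pandas 2.3.3, NumPy 2.4.6 and Matplotlib 3.10.9 under Python 3.11.15.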

Additional observations from a re-analysis of the deposited data

How the results depend on the processing

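The count of lncRNAs called high, 0 of 5, moved under 6 alternatives, and the count called low was 0 under every alternative run. It was 1 with TPM rescaled over protein-coding genes (HOXA11-AS in THP-1, 2.08; 25.7% of lncRNA genes were then called) and 1 with aligned bases not divided by length (HOTAIRM1 in K562, 2.18; 19.9%). It was 2 with a pseudocount of 0.1 (HOXA-AS2 and HOXA11-AS; 44.5%), 3 with a log2 difference of 1 (HOXA-AS2, HOXA11-AS and HOTTIP; 44.3%) and 2 without the MOLM13-labelled library (HOTAIRM1 and HOTTIP). It was 1 on exons free of the opposite strand (HOXA11-AS in THP-1, 2.54; 11.4% of 719 lncRNA genes), a setting added after the data were seen, together with joined exon length and nested genes counted in, which changed no call. On exons free of the opposite strand 7 gene and library pairs kept 600 aligned bases and 5 lay above the neighbouring gene; on exons that overlap no other gene 1 pair did and 0 pairs lay above the neighbouring gene, since few such exons exist. No distance between lines changed sign. The count of 8 pairs above the neighbouring gene was 7 without division by length and over the joined exon length, where HOTAIRM1 fell below HOXA2 in the MOLM13-labelled library (5.58 against 9.34 and 3.30 against 3.53), as it did on exons free of the opposite strand (3.35 against 3.53). That last setting also uses the joined length of the exons kept, and all HOTAIRM1 signal lay on such exons. The count was 9 with nested genes counted in, where HOTTIP was above HOXA13 in THP-1 (4.23 against 4.16). No paired analysis was possible because each line has 1 library. Line and library cannot be told apart.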

Other observations

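The lncRNAs of the other HOX clusters were mostly listed at 0 in these libraries. Of 12, including HOTAIR, 8 were listed at 0 in every library and 3 reached 600 aligned bases in any. Among all 14819 lncRNA genes, 1115 reached 600 aligned bases in any library. None of the 3 that reached the minimum was called high, where 14.3% of those 1115 were, and the rest of the 12 could not be called. HOXC-AS1 was the strongest, at a scaled TPM of 16.2 in K562 (12.6 to 20.4) and 6.05 in the MOLM13-labelled library (3.91 to 8.93), with 0 listed for HL60 and THP-1. HOXC-AS2 was at 1.10 in K562 (0.765 to 1.54) and listed at 0 in the other 3. HOXC-AS3 was at 0.639 in THP-1 (0.449 to 0.882) and 0.0165 in K562, and HAGLR was at 0.162 in K562 from 10.1 footprint equivalents. K562 therefore had signal on lncRNAs of the HOXC cluster and on HOTAIRM1 and none on HOXA-AS2, HOXA-AS3, HOXA11-AS or HOTTIP.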
